A study of Rattus norvegicus with 6 samples.

Results

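The genes of DNA replication and S phase described here were a list of 41 rat gene symbols that covers origin licensing, the replisome, the clamp and its loader, and the supply of nucleotides. Rows were selected by symbol alone, and 40 of the 41 were found among the 14475 genes of the count table. The list itself was drawn up with earlier results of these data known. E2f1, a transcription factor of the G1/S transition, was not analysed here. The RNA came from vascular smooth muscle (VSM) cells grown in culture from feed arteries of the soleus muscle (SFA) of male Fischer 344 rats. Young rats were 4 months old and old rats 24 months, and no other treatment or genotype separated the groups. Each group held 3 libraries of polyadenylated RNA, with the study stating 3 rats a group. All cells had been expanded in medium with fetal bovine serum, and the number of passages was not given in the sources used here.

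Replication begins when the origin recognition complex (ORC), with Cdc6 and Cdt1, loads the ring of Mcm2 to Mcm7 onto origins before S phase. Cdc45 and the GINS complex then turn this ring into an active helicase, and DNA polymerases copy both strands while the sliding clamp PCNA, placed by replication factor C (RFC), holds them on the template. Many of these genes are transcribed at the G1/S boundary by E2F factors, and in resting VSM cells of the artery wall the machinery is largely silent until the cells enter the cycle.

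Counts on genes summed to between 44235674 and 59700887 a library, above the number of reads the study's methods state for a sample. Most low counts were even, a pattern that counting each mate of a read pair would leave, and then the fragments behind a printed count are fewer than the count. With all counts halved, edgeR gave the same numbers for the list, 0 genes called and 26 at an unadjusted p under 0.05. Old replicate 1 correlated better with a library of the young group (Spearman 0.983 over all genes, with young replicate 1) than with the least similar library of its own group (0.973). Young replicate 1 stood in the same position (0.983 with old replicate 1 and 0.975 at the lowest with its own group). Fold changes and counts of calls are given without old replicate 1, and the counts also without each other library. For Orc1, Cdc6, Pold1, Pole and Rrm2 the weakest fold change with a library left out is given too. Of the marker genes of contractile smooth muscle, 10 of 10 were measured and 10 were lower in old VSM cells, with summed levels of 11263 to 21377 CPM (counts scaled by library size) in young and 3459 to 5576 CPM in old libraries. Of the fibroblast markers, 9 of 10 were higher in old cells, and their summed levels were 1530 to 1865 CPM in young and 2358 to 3020 CPM in old libraries. Of the endothelial markers, 6 of 10 were measured (35.1 to 45.2 CPM in young and 32.9 to 44.1 CPM in old libraries), of the macrophage markers 3 of 10 (5.13 to 16.0 and 10.4 to 16.8 CPM), of the Schwann cell markers 4 of 8 (13.7 to 75.7 and 55.1 to 86.6 CPM) and of the skeletal muscle markers 4 of 11 (132 to 345 and 20.3 to 34.4 CPM). The defining markers Cdh5, Ptprc and Myod1 had no row under those symbols. The part of these cell type markers in the results below was not tested.

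Replication genes were lower in old than in young VSM cells across the list, by a median log2 fold change of −0.88, against 0.02 for all genes. Of the 40 genes, 39 had a fold change below 0, a sign shared by 48% of all genes, and Orc3 alone was above it. The 40 CPM values together came to 1331, 1022 and 1322 CPM in young replicates 1, 2 and 3 and to 1015, 584 and 575 CPM in old replicates 1, 2 and 3. The sum in old replicate 1 lay just under that of young replicate 2, while old replicates 2 and 3 held 47.7% and 46.9% of the young mean. These are bulk cultures, in which fewer cycling cells and less of these RNAs in each cycling cell cannot be told apart.

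With all 6 libraries, none of the 40 genes was called as changed by edgeR, taking a gene as called when its adjusted p was under 0.05 and it differed by 1 or more on the log2 scale (adjusted p from 0.0743 to 0.856), where 0.00691% of all genes were called. At an unadjusted p under 0.05, 26 of the 40 were lower and 0 higher, against 11.5% of all genes lower and 11.2% higher. DESeq2, the test used by the study, called 10 lower and 0 higher at the same thresholds (3.38% and 2.3% of all genes), and limma-voom called 0. At an adjusted p under 0.05 with any fold, DESeq2 gave 18 lower and 0 higher (6.75% and 5.71% of all genes). The fold change was −1 or lower on the log2 scale in 15 of the 40 genes, against 6.34% of all genes. In 23 of the 40 genes all old libraries lay below all young libraries, as in 14.7% of all genes, and 0 had all old libraries above (14.5% of all genes). Unadjusted, DESeq2 had 29 and limma-voom 32 of the 40 lower at p under 0.05 (13.6% and 12.6% of all genes).

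The counts depended on single libraries. Without old replicate 1, edgeR called 26 genes lower and 0 higher (3.47% and 1.58% of all genes), and 33 were lower at an adjusted p under 0.05 with any fold (5.8% of all genes). The median log2 fold change was then −1.19. At an unadjusted p under 0.05, 34 genes were lower without old replicate 1 (16.7% of all genes), 13 without old replicate 2 (7.81%) and 12 without old replicate 3 (8.52%), where 1 gene was higher. Leaving out young replicate 1, 2 or 3 gave 13, 25 and 14 lower (8.72%, 7.68% and 8.45% of all genes). The 10 DESeq2 calls became 26 without old replicate 1 (5.82% of all genes called lower), 2 without old replicate 2 (2.44%) and 3 without old replicate 3 (2.75%). They became 0 without young replicate 1 (2.93%), 7 without young replicate 2 (2.29%) and 2 without young replicate 3 (2.24%).

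**Figure D1:**
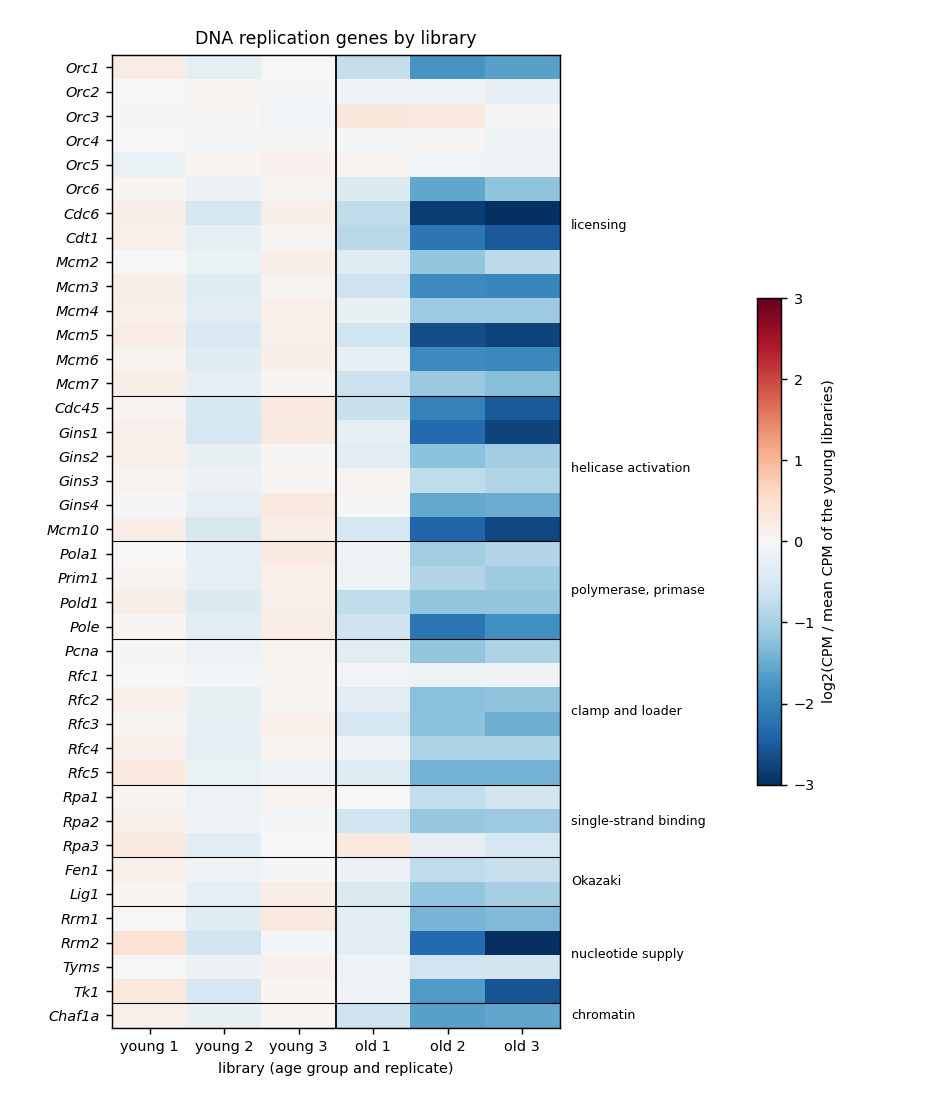
Level of each replication gene in each library as log2 of its CPM over the mean CPM of the 3 young libraries, with genes in rows grouped by role and libraries in columns. Old replicates 2 and 3 are below the young libraries in most rows (36 of 40 genes, an order found in 25.8% of all genes), while old replicate 1 lies nearer to them (median 79.6% of the young mean, against 43.2% and 43.7%), and Orc2 to Orc5 and Rfc1 show little difference.

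The gap between old replicate 1 and the other old libraries ran through the list. A replication gene in old replicate 1 had a median level of 79.6% of the young mean, and no gene was under 50%. In old replicate 2 the median was 43.2% with 28 genes under 50%, and in old replicate 3 it was 43.7% with 25 genes under 50%. Old replicate 1 was the highest of the old libraries in 38 of the 40 genes, an order found in 36% of all genes. On the young side, replicate 2 was the lowest in 37 genes, against 28.2% of all genes, and in 16 genes (40%) it lay below old replicate 1, an order seen in 49.8% of all genes. The median coefficient of variation of a replication gene was 15.8% among young and 37.2% among old libraries, compared with 11.8% and 16.8% for all genes.

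Promoter sequences are shown for Rpa2, Mcm7, Lig1 and Rfc3, because these had the smallest edgeR p-values among the replication genes whose promoter holds a match to the E2F letters. The windows run from 250 bases before to 50 bases after the annotated start, on the sense strand of the gene, and come from RefSeq on build GRCr8. They lie at chr5:150260522-150260821 (plus strand) for Rpa2, chr12:22163129-22163428 (minus strand) for Mcm7, chr1:83242920-83243219 (plus strand) for Lig1 and chr12:5836318-5836617 (plus strand) for Rfc3. Capitals mark the matches to TTTCCCGC, TTTCGCGC, TTTGCCGC or TTTGGCGC on either strand.
Rpa2: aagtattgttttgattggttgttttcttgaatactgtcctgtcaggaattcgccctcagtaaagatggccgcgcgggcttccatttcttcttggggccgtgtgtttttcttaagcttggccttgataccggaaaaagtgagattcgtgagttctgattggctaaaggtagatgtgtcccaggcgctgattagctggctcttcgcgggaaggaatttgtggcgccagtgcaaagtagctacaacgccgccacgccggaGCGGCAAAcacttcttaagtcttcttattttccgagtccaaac
Mcm7: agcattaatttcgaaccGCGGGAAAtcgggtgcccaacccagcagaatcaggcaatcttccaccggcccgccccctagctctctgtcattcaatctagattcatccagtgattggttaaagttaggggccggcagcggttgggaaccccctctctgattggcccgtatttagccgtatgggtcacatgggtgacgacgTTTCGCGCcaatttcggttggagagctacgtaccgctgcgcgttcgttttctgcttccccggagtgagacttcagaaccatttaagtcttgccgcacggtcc
Lig1: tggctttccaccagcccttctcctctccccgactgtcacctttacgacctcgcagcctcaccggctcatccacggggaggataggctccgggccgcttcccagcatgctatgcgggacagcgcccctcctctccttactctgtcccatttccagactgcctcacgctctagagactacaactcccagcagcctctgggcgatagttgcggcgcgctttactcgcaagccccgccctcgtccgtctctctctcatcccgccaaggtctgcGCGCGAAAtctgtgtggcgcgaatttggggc
Rfc3: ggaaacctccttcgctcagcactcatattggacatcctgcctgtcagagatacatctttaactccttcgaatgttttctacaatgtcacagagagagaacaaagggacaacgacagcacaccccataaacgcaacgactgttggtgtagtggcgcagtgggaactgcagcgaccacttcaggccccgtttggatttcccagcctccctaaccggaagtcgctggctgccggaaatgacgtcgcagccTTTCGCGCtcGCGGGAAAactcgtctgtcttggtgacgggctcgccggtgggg

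A window was found for 33 of the 40 genes, and 16 of the 33 (48.5%) held at least 1 such match, against 4.03% of the 10534 promoters of genes in the count table and 2.25% of all 27457 promoters. It was found in 11 of 23 windows (47.8%) of the genes with an unadjusted p under 0.05 and in 5 of 10 (50%) of the other replication genes. Among genes of mitosis, which are switched on later in the cycle, 1 of 18 windows (5.56%) held one. The letters CCAAT, the box bound by NF-Y, were in 21 of the 33 windows (63.6%) and in 15 of the 18 windows of mitosis genes (83.3%), against 37.7% of all promoters. In Mcm5 the E2F letters began at −213, −209 and −8 bases from the start, where the first and second matches overlapped on opposite strands. Such a match describes letters in this window, and no binding was measured.

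In the ORC, which marks origins, the subunits differed from each other. Orc1, the subunit whose level varies with the cycle in many cells, was at 11.1, 7.71 and 9.48 CPM in young and 5.73, 2.77 and 3.06 CPM in old libraries, so the groups did not overlap. Its log2 fold change was −1.29 (SE 0.32, adjusted p = 0.11 with edgeR and 0.00397 with DESeq2), and −1.69 without old replicate 1 (adjusted p = 0.0278, edgeR). The weakest with a library left out was −1.10, without old replicate 2 (adjusted p = 0.235, edgeR). Orc6 was at 12.7, 10.8 and 12.9 CPM in young and 9.09, 4.12 and 5.28 CPM in old libraries, with a log2 fold change of −0.98 (SE 0.30). The remaining subunits, which form the core of the complex, were at 84.6% to 126% of the young mean in each old library. Orc2 was at 27.7, 28.7 and 26.8 CPM in young and 25.4, 25.8 and 23.5 CPM in old libraries. Orc3 was at 26.0, 26.3 and 24.2 CPM in young and 32.1, 31.4 and 24.4 CPM in old libraries. The log2 fold changes of Orc2, Orc3, Orc4 and Orc5 were −0.16, 0.20, −0.05 and −0.04, with edgeR adjusted p from 0.315 to 0.856. The log2 ratio of Orc1 and Orc6 together to Orc2 to Orc5 was −1.37 ± 0.23 in young and −2.56 ± 0.54 in old libraries (SD, n = 3 each; −2.84 in old without replicate 1), a description of subunits split after their values were seen and not a test.

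Cdc6 and Cdt1 load the MCM ring and are kept scarce outside a narrow part of the cycle. Cdc6 was at 12.7, 7.85 and 12.8 CPM in young and 6.57, 1.58 and 1.32 CPM in old libraries. It had the most negative fold change of the 40 genes, −1.82 on the log2 scale (SE 0.65, adjusted p = 0.180 with edgeR and 0.0324 with DESeq2), and −2.93 without old replicate 1 (adjusted p = 0.0262, edgeR). The weakest with a library left out was −1.45, without old replicate 3 (adjusted p = 0.327, edgeR). Cdt1 was at 7.55, 5.55 and 7.18 CPM in young and 3.80, 1.5 and 1.18 CPM in old libraries, with a log2 fold change of −1.65 (SE 0.46, adjusted p = 0.128 with edgeR and 0.00833 with DESeq2). For both loaders every old library lay below every young library, and old replicate 1 was between the young libraries and the other two. Gmnn, the Cdt1 inhibitor geminin, was lower along with Cdt1, with a log2 fold change of −1.67.

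All genes of the Mcm2 to Mcm7 ring, the core of the replicative helicase, had an unadjusted p under 0.05, with log2 fold changes from −1.64 to −0.75. Mcm7, whose promoter is printed above, was at 33.8, 25.1 and 30.2 CPM in young and 18.8, 13.8 and 12.1 CPM in old libraries, with no overlap. Its log2 fold change was −0.99 (SE 0.20, adjusted p = 0.0762 with edgeR and 0.000589 with DESeq2), just short of the fold threshold. Mcm3 was at 43.5, 29.2 and 40.1 CPM in young and 24.3, 10.1 and 9.72 CPM in old libraries. Mcm5 was at 42.5, 26.8 and 40.8 CPM in young and 24.1, 5.81 and 5.34 CPM in old libraries. DESeq2 called both as lower, Mcm3 at a log2 fold change of −1.36 (adjusted p = 0.0113) and Mcm5 at −1.65 (adjusted p = 0.0411), while edgeR gave adjusted p of 0.134 and 0.194. Mcm4 was at 73.7, 52.9 and 73.6 CPM in young and 56.8, 31.2 and 31.3 CPM in old libraries, and there old replicate 1 exceeded young replicate 2. Mcm6, with a log2 fold change of −1.16 (SE 0.48), overlapped in the same way, at 43.6 CPM in old replicate 1 against 41.7 CPM in young replicate 2. Mcm2 was at 45.9, 40.01 and 52.7 CPM in young and 35.1, 20.5 and 26.8 CPM in old libraries. The ring subunits differed in the size of the fold change, with the log2 ratio of Mcm5 to Mcm2 at −0.35 ± 0.23 in young and −1.56 ± 0.92 in old libraries (SD, n = 3 each; −2.07 in old without replicate 1), which was not tested. The ratio was −0.54 in old replicate 1, inside the young range of −0.58 to −0.11, and −1.82 and −2.33 in old replicates 2 and 3. Mcm5 had the most negative fold change of the ring, and Mcm2 was added after its values were seen.

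**Figure D2:**
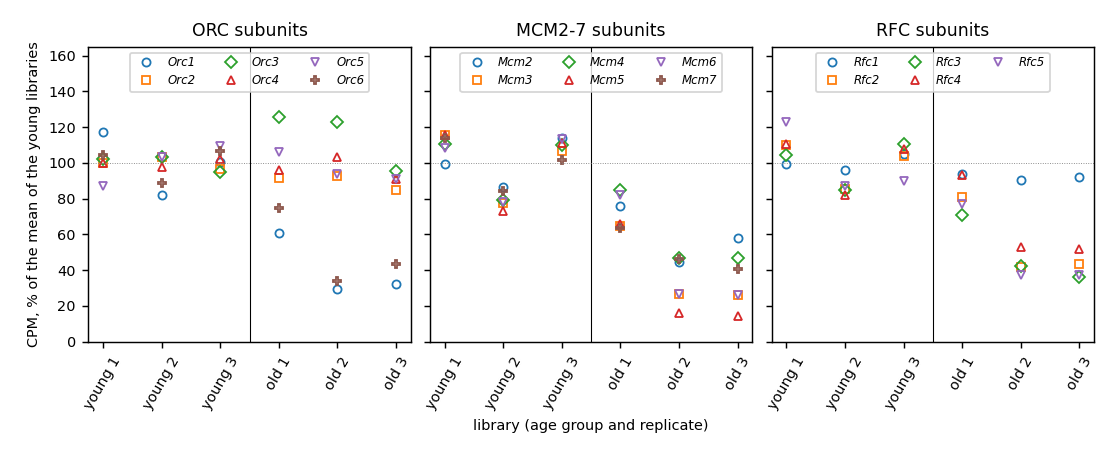
Level of each subunit of ORC, the MCM ring and RFC in each library as a percent of its mean CPM in the 3 young libraries, with 1 panel a complex and 1 symbol a gene. Orc2 to Orc5 and Rfc1 stay near the dotted line at 100% in old libraries (84.6% at the lowest), while Orc1, Orc6, Mcm2 to Mcm7 and Rfc2 to Rfc5 lie lower, with old replicate 1 the highest old library for each of them.

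The genes that turn the loaded ring into a moving helicase had a median log2 fold change of −1.11, and 3 of 6 had an unadjusted p under 0.05. Cdc45, the helicase cofactor, was at 8.55, 5.77 and 9.87 CPM in young and 5.07, 1.96 and 1.40 CPM in old libraries. Its log2 fold change was −1.52 (SE 0.51, adjusted p = 0.167 with edgeR and 0.0303 with DESeq2). Mcm10, which acts as the helicase starts, was at 13.0, 8.11 and 13.1 CPM in young and 7.94, 2.16 and 1.72 CPM in old libraries, so that old replicate 1 was only just below young replicate 2. Of the GINS subunits, Gins4 was at 13.2, 11.1 and 16.5 CPM in young and 13.1, 4.67 and 4.81 CPM in old libraries, with old replicate 1 inside the young range. The log2 fold changes of Gins1, Gins2, Gins3 and Gins4 were −1.37, −0.81, −0.45 and −0.85. Without old replicate 1, edgeR called 5 of these 6 genes as lower (3.47% of all genes), all but Gins3.

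Among the polymerase genes, the leading strand enzyme Pole and the lagging strand enzyme Pold1 were separated between the groups. Pole was at 21.5, 16.6 and 24.0 CPM in young and 13.5, 4.5 and 5.82 CPM in old libraries, with a log2 fold change of −1.38 (SE 0.42, adjusted p = 0.144 with edgeR and 0.0169 with DESeq2). Pold1 was at 13.9, 9.29 and 13.6 CPM in young and 7.28, 5.43 and 5.39 CPM in old libraries, with a log2 fold change of −1.03 (SE 0.22, adjusted p = 0.0847 with edgeR and 0.00115 with DESeq2). Without old replicate 1 the log2 fold changes were −1.18 for Pold1 and −2.003 for Pole. The weakest were −0.93 for Pold1 without young replicate 1 (adjusted p = 0.195, edgeR) and −1.10 for Pole without old replicate 2 (adjusted p = 0.28, edgeR). Prim1, the primase that starts each new strand, was at 38.3, 30.0 and 39.8 CPM in young and 32.5, 19.5 and 17.2 CPM in old libraries. There and in Pola1, the polymerase that extends the primers, old replicate 1 lay above young replicate 2, and the log2 fold changes were −0.64 and −0.61.

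Pcna, the sliding clamp, was at 73.1, 63.9 and 77.1 CPM in young and 56.5, 31.3 and 37.6 CPM in old libraries, without overlap. The log2 fold change of Pcna was −0.77 (SE 0.22, adjusted p = 0.134 with edgeR and 0.0266 with DESeq2). Rfc3, a loader subunit with E2F letters at its start, was at 16.1, 13.1 and 16.98 CPM in young and 10.9, 6.5 and 5.56 CPM in old libraries, with a log2 fold change of −1.005 (SE 0.27, adjusted p = 0.124 with edgeR and 0.0135 with DESeq2). The small subunits Rfc2, Rfc4 and Rfc5 had log2 fold changes of −0.85, −0.60 and −0.99. Rfc1, the large subunit, differed from these, at 47.6, 45.9 and 50.2 CPM in young and 45.0, 43.5 and 44.3 CPM in old libraries, a log2 fold change of −0.11 (SE 0.08). The log2 ratio of Rfc2 to Rfc5 together to Rfc1 was −1.43 ± 0.18 in young and −2.24 ± 0.51 in old libraries (SD, n = 3 each; −2.53 in old without replicate 1), again without a test.

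Replication protein A (RPA) coats single-stranded DNA as a trimer, and its genes differed from each other. Rpa2 was at 24.4, 20.2 and 21.1 CPM in young and 14.6, 10.02 and 10.4 CPM in old libraries, and the old values were clear of the young ones in each library. Its log2 fold change of −0.91 (SE 0.18) had the smallest edgeR adjusted p of the list, 0.0743, with 0.000446 by DESeq2. Rpa1 was at 59.1, 50.7 and 59.9 CPM in young and 56.0, 33.9 and 38.5 CPM in old libraries, with a log2 fold change of −0.40 (SE 0.20). Rpa3 was at 20.2, 13.3 and 16.4 CPM in young and 20.5, 14.1 and 11.5 CPM in old libraries, where the groups overlapped throughout. Of the genes that finish the lagging strand, the ligase gene Lig1 was at 39.9, 31.3 and 43.8 CPM in young and 28.3, 17.2 and 19.3 CPM in old libraries. The log2 fold changes were −0.83 (SE 0.22) for Lig1 and −0.51 (SE 0.18) for the flap endonuclease gene Fen1, and in both all old libraries were below all young ones.

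The 4 genes of nucleotide supply had a median log2 fold change of −1.02 with wide spread, and in none were the groups apart. Rrm1, the large subunit of ribonucleotide reductase, was at 124.7, 95.8 and 150.2 CPM in young and 98.2, 47.2 and 49.6 CPM in old libraries, a log2 fold change of −0.93 (SE 0.32, adjusted p = 0.177, edgeR). Rrm2, the small subunit made in S phase, was at 103.9, 52.4 and 72.7 CPM in young and 60.7, 15.2 and 8.86 CPM in old libraries. Its log2 fold change of −1.43 (SE 0.71) had an edgeR adjusted p of 0.28, and leaving out old replicate 1 gave −2.67 (adjusted p = 0.0306). The weakest value for Rrm2 with a library left out was −1.01. Tk1, thymidine kinase, was at 64.5, 36.4 and 53.7 CPM in young and 47.5, 15.8 and 8.51 CPM in old libraries. In Rrm1, Rrm2 and Tk1 old replicate 1 sat above young replicate 2, the lowest young library. Tyms, thymidylate synthase, had a log2 fold change of −0.43 (SE 0.15). Rrm2b, the small subunit that serves cells outside S phase, had a log2 fold change of −0.34 (SE 0.10).

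Chaf1a, the large subunit of the assembly factor that places histones on new DNA, was at 25.9, 20.2 and 24.2 CPM in young and 15.2, 7.56 and 7.95 CPM in old libraries. The groups were apart, with a log2 fold change of −1.19 (SE 0.29, adjusted p = 0.106 with edgeR and 0.00386 with DESeq2). Across the whole list the 10 genes called by DESeq2 were Orc1, Cdc6, Cdt1, Mcm3, Mcm5, Cdc45, Pold1, Pole, Rfc3 and Chaf1a. The 14 genes with an unadjusted p of 0.05 or more had log2 fold changes from −1.43 to 0.20 and included Gins1, Rrm2 and Tk1 beside Orc2 to Orc5 and Rfc1. In RefSeq 12 of the 40 genes had a named copy or pseudogene, whose reads the counting could have shared, and 28 had none. In the 28 without one, 20 had an unadjusted p under 0.05 and the median log2 fold change was −0.94, and in the 12 these were 6 and −0.81. The spans of 14 genes overlapped another gene. Of the 17 with neither a copy nor an overlap, 14 had an unadjusted p under 0.05.

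**Figure D3:**
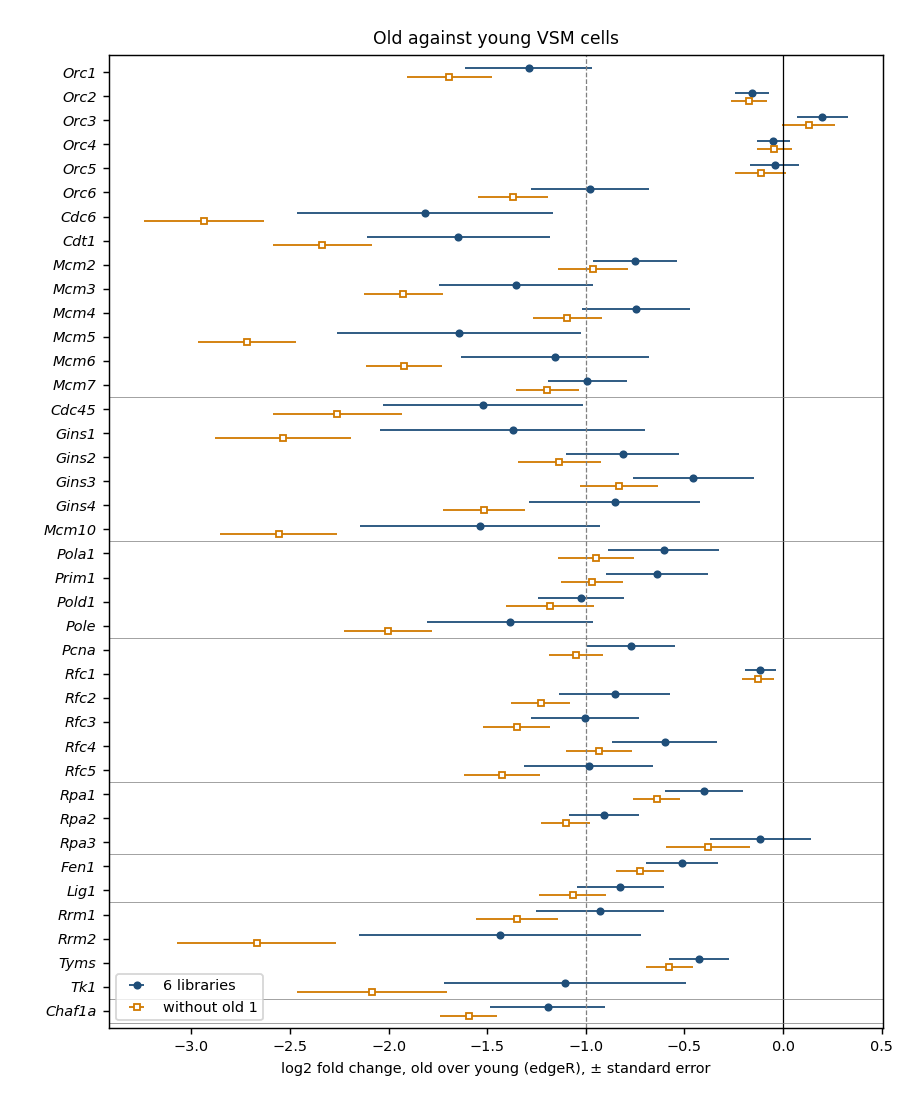
Log2 fold change of old over young for each replication gene with its SE from edgeR, from all 6 libraries and from 5 libraries without old replicate 1. With 6 libraries the values run from −1.82 (Cdc6) to 0.20 (Orc3), and without old replicate 1 from −2.93 to 0.13. Fits without another library are not drawn.

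A second list held 44 other genes of replication, of which 42 were measured. Of these 38 were lower and 4 higher, at a median log2 fold change of −0.74, and 25 were lower and 1 higher at an unadjusted p under 0.05 (11.5% and 11.2% of all genes). That total of 26 was 13 without young replicate 1 or old replicate 3, 10 without young replicate 3, 9 without old replicate 2 and 34 without old replicate 1. Timeless, of the fork protection complex, was at 14.3, 12.6 and 14.2 CPM in young and 8.26, 4.66 and 3.62 CPM in old libraries, with a log2 fold change of −1.31 (SE 0.31, adjusted p = 0.1 with edgeR and 0.00208 with DESeq2). Slbp, which binds the stem loop of histone mRNAs, had a log2 fold change of −0.43 (SE 0.09, adjusted p = 0.0897, edgeR). The gene on the higher side was Samhd1, an enzyme that degrades dNTPs, at 4.34, 3.86 and 3.62 CPM in young and 5.55, 5.29 and 5.19 CPM in old libraries. The log2 fold change of Samhd1 was 0.44 (SE 0.16, adjusted p = 0.188, edgeR), and that of Dna2, a nuclease and helicase, was 0.21.

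Of 23 genes that control the G1/S step, 19 were lower, 12 of them at an unadjusted p under 0.05 against 11.5% of all genes. At that level 2 of the 23 were higher, no larger a share than the 11.2% of all genes (1 without young replicate 1 or young replicate 3). The 12 lower genes became 8 without young replicate 1, young replicate 3 or old replicate 2 (8.72%, 8.45% and 7.81% of all genes). They became 9 without old replicate 3 (8.52%), 11 without young replicate 2 (7.68%) and 14 without old replicate 1 (16.7%). E2f6, an E2F family member that represses transcription, was at 78.7, 81.6 and 69.4 CPM in young and 39.7, 37.3 and 39.2 CPM in old libraries. Here the old libraries, replicate 1 included, lay close together, and the log2 fold change of −0.98 (SE 0.09) had an edgeR adjusted p of 0.0531. Cdc25a, the phosphatase that activates Cdk2, had a log2 fold change of −0.73 (SE 0.13, adjusted p = 0.0638, edgeR). Ccne1 and Cdk2, the cyclin and kinase that start S phase, had log2 fold changes of −0.73 and −0.92, and Ccna2 and Ccnd1 had −1.30 and −0.48. The 2 higher genes were Tfdp2, a partner of E2F factors, with a log2 fold change of 0.50 and Rbl2, a pocket protein that holds E2F targets off in resting cells, with 0.47.

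All 20 genes of mitosis were lower in old cells, at a median log2 fold change of −1.28. The count at an unadjusted p under 0.05 depended on the test. It was 3 with edgeR, where 11.5% of all genes were lower at that level, and 18 with DESeq2 and with limma-voom (13.6% and 12.6% of all genes). Their summed levels were 1315, 799 and 1295 CPM in young and 898, 277 and 186 CPM in old libraries, with old replicate 1 above young replicate 2. In 17 of the 20 genes old replicate 1 exceeded young replicate 2, against 16 of the 40 replication genes and 49.8% of all genes. Without old replicate 1 edgeR called 19 of the 20 as lower (3.47% of all genes), and the median was −2.30. It called 0 of the 20 with all 6 libraries and with any other library left out. At an unadjusted p under 0.05, the 3 of edgeR became 0 without any one of young replicate 1, young replicate 3, old replicate 2 or old replicate 3. Mki67, a marker of cycling cells, was at 142, 87.6 and 145 CPM in young and 103, 29.9 and 17.5 CPM in old libraries, a log2 fold change of −1.31 (SE 0.65, adjusted p = 0.277, edgeR). Prc1, which bundles the spindle midzone, and Tpx2, a spindle assembly factor, had log2 fold changes of −1.72 and −1.44, and Top2a had −1.27.

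Of the 7 genes for inhibitors of cyclin-dependent kinases, 5 were higher in old cells and 4 of these, Cdkn1a, Cdkn1b, Cdkn1c and Cdkn2b, had an unadjusted p under 0.05 (11.2% of all genes were higher at that level). The 4 became 2 with limma-voom, 2 without young replicate 1 and 1 without young replicate 2, young replicate 3 or old replicate 3. In these settings 2135 to 3347 of all 14475 genes passed that level in either direction. Filters of over 1 CPM in at least 3 libraries, or at least 10 counts in all libraries, each kept 6 of the 7 inhibitor genes. Of these 6, 3 were higher at an unadjusted p under 0.05, where 2979 of 12233 and 3102 of 13169 genes passed in either direction. The largest log2 fold change among the 7 was 2.78 with all libraries. Without old replicate 1 the largest was 3.33, and edgeR called 1 of the 7 higher (1.58% of all genes). Cdkn1a, the p21 gene, was at 228, 185 and 140.4 CPM in young and 239.9, 276 and 257 CPM in old libraries, with a log2 fold change of 0.48 (SE 0.18, adjusted p = 0.198, edgeR). Cdkn1b, the p27 gene, was at 36.5, 34.6 and 36.7 CPM in young and 48.7, 66.9 and 43.9 CPM in old libraries, with a log2 fold change of 0.57 (SE 0.17, adjusted p = 0.136, edgeR). In both all old libraries, replicate 1 included, were above all young libraries. The 2 lower genes were Cdkn2c and Cdkn2d, inhibitors of Cdk4 and Cdk6, with log2 fold changes of −0.48 (SE 0.40) and −0.35 (SE 0.23). Cdkn2a, which encodes p16 and is read as a marker of senescence, had a log2 fold change of 0.26 (SE 0.18). That value is for the whole gene and not for the p16 transcript alone.

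**Figure D4:**
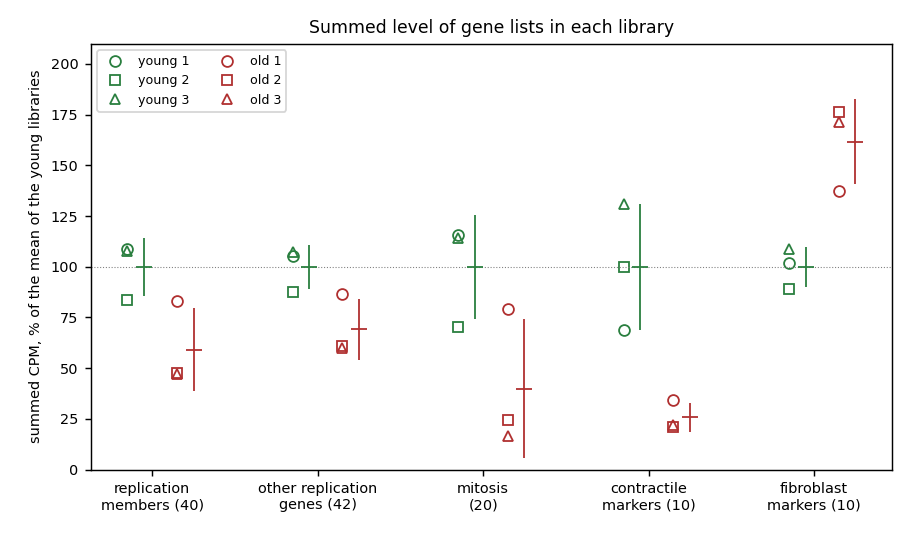
Summed CPM of the 40 replication genes, 42 other replication genes, 20 mitosis genes, 10 contractile markers and 10 fibroblast markers in each library, as a percent of the mean of the young libraries, with the mean and SD of each group (n = 3) beside the points. For the 40 replication genes the old libraries are at 82.9%, 47.7% and 46.9% and the lowest young library at 83.4%, and the contractile markers are lower and the fibroblast markers higher in every old library than in every young one.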

How the data were processed

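Per the study's methods, reads were trimmed with Cutadapt 3.5 through Trim Galore 0.6.7, aligned to rat assembly Rnor 6.0 with STAR 2.7.10b and counted with featureCounts (Subread 2.0.8). The authors deposited whole-number counts per gene that were not normalized and had been filtered on low counts. Strand, mate and multi-mapping settings were not given in the sources used here. The methods name the RefSeq annotation, while the table names genes by Ensembl identifier. Even numbers made up 68.7% to 71.1% of counts between 1 and 19.

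Old was compared with young in R 4.3.3 with edgeR 4.0.16 (TMM, quasi-likelihood F test, Benjamini-Hochberg adjustment over 14475 genes), with DESeq2 1.42.0 and limma-voom (limma 3.58.1) as alternatives. The study itself used DESeq2 1.46.0 with the same thresholds. DESeq2 here called 479 of all genes lower and 326 higher, the totals that the study reported. CPM used TMM library sizes and is not scaled to gene length, so levels of different genes were not compared. SE is the absolute log2 fold change over the square root of F. P-values reflect the spread between 3 cultures a group. Scripts were tested on simulated data.

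The genes and lists were chosen with earlier results of these data known. CPM by library was given for the most abundant member and that of smallest p in each role and for members called by DESeq2. Outside the members, the pair of smallest p in each direction and 8 further genes were named. Orc2, Orc3, Orc6, Mcm2, Mcm6, Mcm10, Rfc1, Rpa3, Rrm2, Tk1, Gmnn and Rrm2b were added after their values were seen. DESeq2 with each library left out was also added later.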

Additional observations from a re-analysis of the deposited data

How the results depend on the processing

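The number of replication genes called, 0 with edgeR on all libraries, was 10 with DESeq2 and ranged from 0 to 26 with a library left out in edgeR. DESeq2 called 0, 7 and 2 without young replicates 1, 2 and 3 and 26, 2 and 3 without old replicates 1, 2 and 3. The number with edgeR was 3 at an adjusted p under 0.1 without a fold threshold (Rpa2, Mcm7 and Pold1). At that level 658 of all 14475 genes passed in either direction. The number of replication genes called was 0 with RLE size factors, library size only, both stricter filters, limma-voom and halved counts. The 26 replication genes at an unadjusted p under 0.05 ranged from 13 to 34 and the 26 other replication genes from 9 to 36 with a library left out in edgeR or DESeq2. The median log2 fold change of −0.88 ranged from −1.20 to −0.72. The 19 replication genes chosen for CPM by library through abundance, smallest p or a DESeq2 call were lower under every setting, whereas Orc5 and Rpa3 reached 0.03 and 0.06 with a library left out and Orc3 was higher with all 6. The smallest p and the DESeq2 calls came from these same libraries, so the shared sign of the 19 is no independent check.

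Replicate numbers are shared between the groups, but the labels do not pair them. Deviations from the group means correlated at 0.0632, 0.322 and 0.313 for numbers 1, 2 and 3. With the replicate number as a block, 0 replication genes were called, 33 had an unadjusted p under 0.05 and the median log2 fold change was −0.96. In that fit 31 other replication genes had an unadjusted p under 0.05, as did 19 of the 20 mitosis genes (3 without the block). Of all 14475 genes, 3254 passed that level in either direction with the block and 3277 without it.

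Counts of a replication gene in a library ranged from 46 (Gins1) to 7377 (Rrm1). The cause of the differences between settings was not tested.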
